A study of Mus musculus with 14 samples.

Results

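Regulatory T cells (Tregs) that infiltrated a melanoma and carried a Foxp3-driven deletion of Cd36 were compared with Tregs of the spleen. The comparison used 7 of the series' 14 RNA libraries, taken by their labels: 3 from Cd36-deleted tumor Tregs (KO tumor 1 to 3) and 4 from spleen Tregs (spleen 1 to 4). KO tumor cells were Foxp3-YFP-positive Tregs of strain CD36floxed FoxP3-YFPCre+/-, labelled CD36 KO, from Yumm1.7 tumors, a transplantable mouse melanoma line. Spleen cells were Foxp3-YFP-positive Tregs of strain FoxP3-YFPCre+/+, labelled WT. All mice were 8 weeks old. Both strains express a YFP-Cre fusion from Foxp3, so that floxed Cd36 is deleted in cells that express the fusion. The strain labels differ in this fusion as well, +/- in KO tumor and +/+ in spleen. Whether the spleen donors bore tumors is not given in the sources used here. Every gene that reached 1 FPKM (fragments scaled to the length of the transcript and the size of the library) in at least 3 of the 7 libraries was tested, which gave 8725 of the 22255 genes in the files. The series was made to compare Tregs among spleen, lymph node and tumor, and Cd36-deleted with wild-type tumor Tregs. Here tissue and genotype differ together, so that their parts in any difference cannot be told apart, and no wild-type tumor library entered the comparison.

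Tregs are CD4 T cells that restrain other immune cells and owe their identity to the transcription factor Foxp3. Those in tumors are known to be activated, with high costimulatory and checkpoint receptors, and to live where glucose is scarce and lactate and lipids are plentiful. Cd36 is a scavenger receptor that imports long-chain fatty acids and oxidized lipids, and PPAR nuclear receptors are switched on by such lipids.

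Smart-Seq2, a full-length method for little RNA, was used for all libraries. Depth, estimated from the steps between low FPKM values, was 13.6 to 17.1 M (megareads) in KO tumor and 11.4 to 13.8 M in spleen, and between 7559 and 8247 genes of a library reached 1 FPKM. Whether each library came from its own animal is not stated, so a p-value here reflects how far these samples spread, part of which may be technical. In bulk RNA, fewer cells of a type and less RNA per cell cannot be told apart. Foxp3 was detected in every library, at 42.4, 41.7 and 25.7 FPKM in KO tumor, against 21.1, 16.9, 27.8 and 8.67 FPKM in spleen. Cd3d, a chain of the T cell receptor complex, was at 729 to 977 FPKM in KO tumor and 870 to 1184 FPKM in spleen. Both genes show that such cells were present, not that other cells were absent, and markers of those are given below. The Foxp3 difference of 1.01 ± 0.50 on the log2(FPKM + 1) scale (difference ± standard error) had an adjusted p of 0.414, and KO tumor 3 lay within the spleen range. KO tumor 3 stood apart in globin RNA, with 63.3 FPKM summed over 7 erythroid markers, against 9800 and 16427 FPKM in KO tumor 1 and 2 and 2976 to 7086 FPKM in spleen. Markers of melanoma cells were near 0, with a sum of at most 0.713 FPKM in KO tumor and at most 1.90 FPKM in spleen, and Tyr, Tyrp1, Dct, Mlana and Sox10 were listed at 0 in all 7 libraries.

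Cd36 (GRCm38 chr5:17781690-17888801), the targeted gene, was low in both groups. It was listed at 0 in KO tumor 1 and 3 and at 1.06 FPKM in KO tumor 2, against 0, 0.598, 4.47 and 2.17 FPKM in spleen 1 to 4. The groups overlapped, since spleen 1 was also listed at 0 and KO tumor 2 lay above spleen 2. The difference in mean log2(FPKM + 1), KO tumor minus spleen, was -0.85, with p = 0.371 in a two-sided exact permutation test over the 35 arrangements of the samples, where the smallest possible p is 0.0286. The FPKM of a gene covers its exons together, and which of them are floxed is not given in the sources used here, so that the value in KO tumor 2 is no check of the deletion there.

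KO tumor and spleen Tregs differed in 185 of the 8725 tested genes at an adjusted p under 0.05, which is 2.12% of the tested genes. Of these, 119 genes (1.36%) were higher and 66 genes (0.756%) were lower in KO tumor, while 4418 tested genes had a positive and 4307 a negative difference of any size. The median difference was 0.02 over the tested genes, 2.81 over the genes that rose and -1.50 over those that fell. All values of one group lay outside the range of the other in each of the 185 genes, a pattern that 632 tested genes (7.24%) showed upward and 608 (6.97%) downward. These shares of called and of non-overlapping genes are the background for the counts in the lists below. Among the genes that rose, 109 were protein-coding, and among those that fell 38 were, beside 9 small nuclear RNA genes, 5 small nucleolar RNA genes and 3 mitochondrial tRNA genes. The counts rest on all 3 KO tumor libraries: without KO tumor 1, 2 or 3 in turn, 42, 34 and 54 genes were called, and without spleen 1, 2, 3 or 4 in turn, 124, 120, 149 and 131. Of the 185 genes 23 were not tested without a KO tumor library. They met the filter through the KO tumor libraries alone, so that they had to be higher there. Genes that met it through the spleen libraries alone, Fcmr and Eps8l1 among them, had to be lower in KO tumor. Of the 185 genes 31 were called in all 7 fits that left out 1 library. No difference among the called genes turned its sign or moved by over 1.5 times in these fits.

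**Figure D1:**
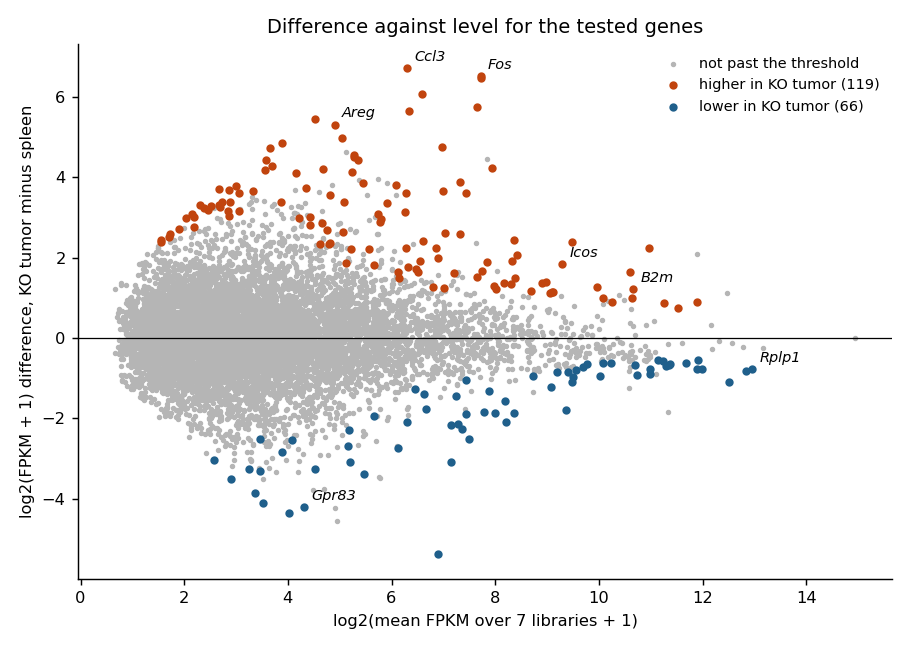
Difference in log2(FPKM + 1), KO tumor minus spleen (vertical axis), against the level over the 7 libraries (horizontal axis, log2 of the mean FPKM + 1), 1 point a tested gene. The 119 genes higher and 66 genes lower in KO tumor at an adjusted p under 0.05 are coloured, and the called genes at the right edge below 0 are mostly ribosomal protein genes.

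Immediate early genes, which cells switch on within minutes of a signal and before new protein is made, were the list with the highest median. Of its 30 genes 27 were tested, 13 rose and 0 fell (48.1% called, against 2.12% of all tested genes). The median difference was 2.52, beside 0.02 over all tested genes. The groups did not overlap in 23 tested members upward and in 1, Ier5, downward, beside 7.24% and 6.97% of all tested genes. The Ier5 difference of -0.65 ± 0.34 had an adjusted p of 0.44. The AP-1 subunit Fos (chr12:85473890-85477273) had the lowest p of all genes. It was at 553, 542 and 355 FPKM in KO tumor, against 2.16, 5.98, 2.89 and 7.11 FPKM in spleen. The groups lay far apart, with each spleen library below 10 FPKM, and the difference was 6.53 ± 0.46 (adjusted p = 0.000256). Other AP-1 genes moved too. Fosb, a relative of Fos, was at 33.1, 20.7 and 22.3 FPKM in KO tumor, against 0.0200, 0.0645, 0.862 and 0 FPKM in spleen. Its difference was 4.44 ± 0.63 (adjusted p = 0.00725). It met the filter through the KO tumor libraries alone, so that it had to be higher there. Jun was at 40.1, 42.6 and 48.4 FPKM in KO tumor and 8.79, 10.5, 3.34 and 11.1 FPKM in spleen, a difference of 2.35 ± 0.52 (adjusted p = 0.0480). Junb and Jund, 2 further subunits, had differences of 1.49 and 0.84 and did not pass (adjusted p = 0.118 and 0.128).

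Feedback inhibitors of signalling stood beside these factors. Dusp1 (chr17:26505590-26562128), a phosphatase that switches off MAP kinases, was at 307, 221 and 298 FPKM in KO tumor, against 2.74, 9.89, 6.70 and 33.0 FPKM in spleen. Spleen 4 was the highest spleen library and still well below KO tumor, and the difference was 4.75 ± 0.64 (adjusted p = 0.00605). Rgs2 (chr1:143999338-144004161), which shortens signals of G protein-coupled receptors, was at 455, 547 and 356 FPKM in KO tumor, against 14.8, 28.6, 3.63 and 1.1 FPKM in spleen, a difference of 5.77 ± 0.78 (adjusted p = 0.00605). Its relative Rgs1 differed by 2.70 ± 0.51 (adjusted p = 0.0242) and the phosphatase Dusp5 by 2.64 ± 0.52 (adjusted p = 0.0287). Zfp36, whose protein speeds the decay of cytokine mRNAs, was at 164, 129 and 128 FPKM in KO tumor and at 27.4, 25.5, 28.7 and 32.8 FPKM in spleen, a difference of 2.25 ± 0.32 (adjusted p = 0.00725). Spleen levels of Zfp36 were close together, in contrast to those of Rgs2. The zinc finger factor Klf6 was at 152, 167 and 145 FPKM in KO tumor and 18.5, 19.0, 17.1 and 12.5 FPKM in spleen, a difference of 3.15 ± 0.35 (adjusted p = 0.00321). The remaining members that rose were Klf4, Cd69, an early activation antigen that keeps T cells in tissue, and the orphan nuclear receptors Nr4a1 and Nr4a2, which T cell receptor signals induce. Nr4a2 was at 91.3, 96.6 and 86.4 FPKM in KO tumor and 4.07, 2.43, 15 and 5 FPKM in spleen, a difference of 3.85 ± 0.57 (adjusted p = 0.00795), while Nr4a3 differed by 2.72 ± 0.78 and did not pass (adjusted p = 0.117). Without KO tumor 1, 2 or 3 in turn, 4, 4 and 6 of the 13 were called, and Fos, Dusp1, Rgs2 and Klf6 were called in all 7 fits that left out 1 library. Of the 13, Fosb and Klf4 met the filter through the KO tumor libraries alone, so that both had to be higher there. Neither was tested without a KO tumor library, and Klf4 was not called without any 1 spleen library either. For the other 11 members that rose, the highest adjusted p over these fits was 0.193, that of Jun.

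The promoter of Dusp1 and that of Areg, described next, each hold the 8-base cAMP response element TGACGTCA, which 1.79% of the 32851 promoters in the RefSeq table hold. A promoter here is the window from 250 bases before to 50 bases after a gene's start, and both strands were searched. Dusp1 was the single gene with it among the 11 immediate early genes that rose and have a promoter in the table, and the AP-1 site TGACTCA was in none of the 11. The sequences are RefSeq's on GRCm38.p6, with the element in capitals. That of Dusp1 is chr17:26508423-26508722 on the minus strand, and the element begins 143 bases before the start. That of Areg is chr5:91139349-91139648 on the plus strand, and the element begins 61 bases before the start. A match is a match of letters only, and binding was not measured.
Dusp1 promoter: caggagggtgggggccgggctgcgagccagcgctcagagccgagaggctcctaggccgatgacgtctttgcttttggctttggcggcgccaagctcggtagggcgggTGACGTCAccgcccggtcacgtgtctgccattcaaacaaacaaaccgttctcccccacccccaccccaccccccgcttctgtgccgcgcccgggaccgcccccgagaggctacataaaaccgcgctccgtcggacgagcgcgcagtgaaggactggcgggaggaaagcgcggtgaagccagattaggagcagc
Areg promoter: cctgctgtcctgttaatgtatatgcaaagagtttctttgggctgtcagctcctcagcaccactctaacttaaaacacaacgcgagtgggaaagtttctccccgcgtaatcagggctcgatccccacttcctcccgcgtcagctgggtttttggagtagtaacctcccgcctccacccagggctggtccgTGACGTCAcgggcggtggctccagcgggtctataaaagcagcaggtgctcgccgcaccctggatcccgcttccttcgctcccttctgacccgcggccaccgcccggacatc

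**Figure D2:**
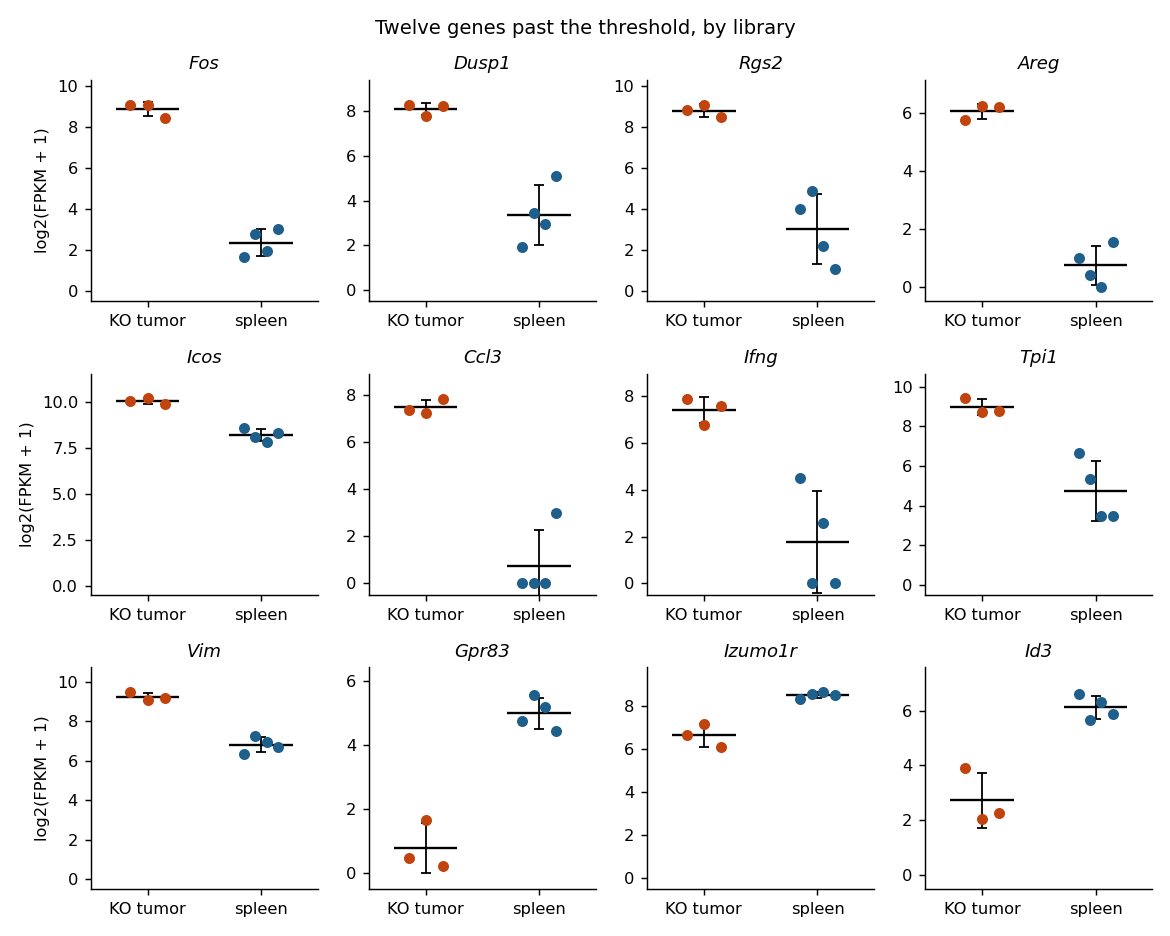
Level of 12 called genes in each library, as log2(FPKM + 1), with KO tumor at the left and spleen at the right of each panel; points are libraries, the long bar is the mean and the error bar 1 SD. The 3 KO tumor libraries lie above all 4 spleen libraries in each panel but Gpr83, Izumo1r and Id3, where they lie below.

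Genes of effector and tumor-resident Tregs leaned upward. Of 33 tested members 6 rose and 0 fell, beside 1.36% of all tested genes that rose, and the median difference was 1.18. The groups did not overlap in 16 upward and 0 downward, beside 7.24% and 6.97% of all tested genes. Icos (chr1:60977927-61000320), a costimulatory receptor of activated Tregs, was at 1057, 1192 and 943 FPKM in KO tumor, against 387, 268, 223 and 319 FPKM in spleen, a difference of 1.85 ± 0.21 (adjusted p = 0.00359). It was already abundant in spleen, and the groups did not overlap. Areg (chr5:91139599-91148432), which encodes the tissue-repair growth factor amphiregulin, was at 53.3, 73.5 and 72.3 FPKM in KO tumor, against 0.998, 0.335, 0 and 1.94 FPKM in spleen. It was thus close to absent in spleen, with a difference of 5.32 ± 0.61 (adjusted p = 0.00366). Tigit, an inhibitory receptor, differed by 2.35 ± 0.48 (adjusted p = 0.0362), and Ccr2, a chemokine receptor for entry into inflamed tissue, by 2.81 ± 0.53 (adjusted p = 0.0242). Id2 and Rora, transcription regulators of tissue lymphocytes, differed by 1.91 ± 0.33 (adjusted p = 0.0172) and 2.22 ± 0.40 (adjusted p = 0.0214). Rora was even across libraries, at 65.0, 68.7 and 65.8 FPKM in KO tumor and 12.6, 18.7, 10.9 and 13.1 FPKM in spleen. Tnfrsf9, the costimulatory receptor 4-1BB, missed the threshold at 1.65 ± 0.37 (adjusted p = 0.0501), and Ccr8, a chemokine receptor known for tumor Tregs, at 3.22 ± 0.79 (adjusted p = 0.0681). Ccr8 spread widely within KO tumor, at 43.1, 6.02 and 10.1 FPKM, against 0.322, 0.138, 0.493 and 2.08 FPKM in spleen. Il10, an inhibitory cytokine, was at 52.6, 50.2 and 59.3 FPKM in KO tumor and 8.62, 12.5, 0.0553 and 40.4 FPKM in spleen and did not pass (adjusted p = 0.251). Icos and Areg were called in all 7 fits that left out 1 library, while 2, 2 and 3 of the 6 were called without KO tumor 1, 2 and 3, with adjusted p up to 0.169.

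Treg identity genes moved both ways. Of 19 tested members 2 rose, 2 fell and 15 did not pass, and the median difference was 0.41. Of all tested genes 1.36% rose and 0.756% fell. Ctla4 (chr1:60887000-60915832), the checkpoint receptor that strips costimulatory ligands from other cells, was at 147, 158 and 166 FPKM in KO tumor, against 2.59, 11.9, 13.9 and 40.0 FPKM in spleen, a difference of 3.61 ± 0.68 (adjusted p = 0.0242). Tnfrsf18, the receptor GITR, was at 389, 362 and 297 FPKM in KO tumor and 71.0, 148, 112 and 118 FPKM in spleen, a difference of 1.67 ± 0.28 (adjusted p = 0.0159). KO tumor values of Ctla4 were close together, whereas spleen values spread widely, with spleen 1 lowest and spleen 4 highest. Gpr83 (chr9:14860210-14870789), a G protein-coupled receptor of Tregs, went the other way, at 0.382, 2.16 and 0.162 FPKM in KO tumor, against 26.2, 46.5, 35.4 and 20.7 FPKM in spleen. Its difference was -4.21 ± 0.62 (adjusted p = 0.00756). Izumo1r (chr9:14885814-14903949), the neighbouring gene and the folate receptor 4 of Tregs, was at 101, 143 and 67.3 FPKM in KO tumor, against 323, 375, 399 and 365 FPKM in spleen, a difference of -1.87 ± 0.27 (adjusted p = 0.00756). Gpr83 and Izumo1r were called in all 7 fits that left out 1 library. Ctla4 and Tnfrsf18 were called in none of the 3 fits without a KO tumor library, Ctla4 also not without spleen 2, with adjusted p up to 0.109 and 0.0926. Ikzf2, which encodes Helios, was at 123 to 132 FPKM in KO tumor and 103 to 164 FPKM in spleen, and Il2ra, the high-affinity interleukin 2 receptor chain, at 41.8 to 62.2 FPKM in KO tumor and 12.2 to 84.6 FPKM in spleen, so that both overlapped.

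Genes of resting and lymphoid-homing T cells leaned downward. Of 21 tested members 0 rose and 2 fell, beside 0.756% of all tested genes that fell, and the median difference was -1.16. The groups did not overlap in 0 upward and 10 downward, beside 7.24% and 6.97% of all tested genes. Id3 (chr4:136143497-136145755), which holds E proteins in check in resting T cells, was at 13.8, 3.12 and 3.78 FPKM in KO tumor, against 96.9, 49.2, 78.1 and 58.4 FPKM in spleen, a difference of -3.39 ± 0.55 (adjusted p = 0.0123). Treml2, a receptor of the TREM family, was at 2.56, 0.114 and 0.220 FPKM in KO tumor and 19.7, 19.7, 19.6 and 8.07 FPKM in spleen, a difference of -3.31 ± 0.69 (adjusted p = 0.0368). Spleen 1, 2 and 3 were nearly equal for Treml2, and spleen 4 was the lowest of its group. The survival gene Bcl2 was at 9.08, 14.5 and 7.32 FPKM in KO tumor and 27.8, 40.3, 51.6 and 74.6 FPKM in spleen, and its difference of -2.10 ± 0.49 missed the threshold (adjusted p = 0.0547). Tcf7 and Lef1, factors of naive and memory T cells, differed by -1.25 and -1.38 and did not pass (adjusted p = 0.0949 and 0.248). The homing genes Ccr7 and S1pr1 overlapped between the groups, and Klf2, which drives S1pr1, was at 353 to 539 FPKM in KO tumor and 256 to 580 FPKM in spleen. Id3 was not called without KO tumor 2 or 3 (adjusted p up to 0.0660), nor Treml2 without any KO tumor library or spleen 1, 2 or 3 (adjusted p up to 0.153). Dtx1, a regulator of Notch signalling named for its size of change, was at 8.08, 1.55 and 12.8 FPKM in KO tumor and 58.0, 55.5, 57.5 and 57.7 FPKM in spleen, a difference of -3.09 ± 0.58 (adjusted p = 0.0242). It was called in 1 of the 7 fits that left out 1 library, that without KO tumor 3 (adjusted p up to 0.0735).

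Ccl3, a secreted chemokine, had the largest difference of the called genes. Of 19 tested chemokine and chemokine receptor genes 3 rose and 0 fell, with a median of 1. Of 26 tested cytokine and cytokine receptor genes 2 rose and 0 fell, with a median of 0.56. Of all tested genes 1.36% rose. Ccl3 (chr11:83647844-83649355), a chemokine that draws monocytes and T cells, was at 161, 151 and 224 FPKM in KO tumor and listed at 0 in spleen 1, 2 and 3 and at 6.94 FPKM in spleen 4. The difference was 6.72 ± 0.78 (adjusted p = 0.00369), and the call held in all 7 fits that left out 1 library. Ccl5, abundant in both groups, was at 2170, 2474 and 1985 FPKM in KO tumor and 1266, 1024, 809 and 1392 FPKM in spleen, a difference of 1 ± 0.18 (adjusted p = 0.0226). Ifng (chr10:118441046-118445892), which encodes the helper cytokine interferon gamma, was at 236, 108 and 191 FPKM in KO tumor and 21.8, 0, 4.92 and 0 FPKM in spleen. The spleen libraries varied from 0 to above 20 FPKM, all below KO tumor, and the difference was 5.65 ± 1.01 (adjusted p = 0.0200). Ifngr1, a chain of its receptor, was at 677, 555 and 570 FPKM in KO tumor and 236, 130, 87.3 and 145 FPKM in spleen, a difference of 2.08 ± 0.30 (adjusted p = 0.00756). Of 11 tested cytotoxic granule genes 2 rose, namely Nkg7, a granule membrane protein, by 2.39 ± 0.37 (adjusted p = 0.0107), and the protease Ctsw by 2.59 ± 0.54 (adjusted p = 0.0368). Gzmb, granzyme B, was at 7.56, 19.0 and 2.14 FPKM in KO tumor and 6.25, 0, 0 and 0 FPKM in spleen and did not pass (adjusted p = 0.301). Fasl, a death ligand outside this list that passed the threshold and was picked after its values were seen, was at 24.6, 19.1 and 6.16 FPKM in KO tumor and 0, 0.881, 0.374 and 0 FPKM in spleen (adjusted p = 0.0270). It met the filter through the KO tumor libraries alone, was not tested without any 1 of them, and was not called without spleen 1, 3 or 4 (adjusted p up to 0.0617).

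Markers of cells that could carry such products were read beside them. The 7 markers of CD8 T or NK cells summed to 16.6 to 52.2 FPKM in KO tumor and 8.31 to 66.8 FPKM in spleen, with 6 of 7 above 0 in some KO tumor library and 7 of 7 in some spleen library, and Ncr1 at 0 in all KO tumor libraries. The groups overlapped in this sum. The 8 markers of conventional helper T cells, Ifng among them, summed to 147 to 271 FPKM in KO tumor and 4.46 to 41.1 FPKM in spleen. Ifng made up 70.9 to 87.1% of that sum in KO tumor, so that it largely restates the Ifng values. Without Ifng, a sum added after the data were seen, the markers came to 35, 38.1 and 78.2 FPKM in KO tumor and 19.3, 30.9, 25.5 and 4.46 FPKM in spleen, still with no overlap. Of these 8, 7 were above 0 in some KO tumor library and 6 in some spleen library, Il21 was at 0 in all KO tumor libraries, and Il4 and Il17a were at 0 in all spleen libraries. Beside Ifng, the T-bet gene Tbx21 was at 12.3, 22.6 and 16.5 FPKM in KO tumor and 0.792, 9.15, 15.6 and 1.47 FPKM in spleen, and Cd40lg, the CD40 ligand, at 21.3, 9.5 and 52.4 FPKM in KO tumor and 14.4, 17.9, 6.32 and 1.95 FPKM in spleen, and neither passed (adjusted p = 0.397 and 0.491). The part of other T cells in the Ifng result was not tested. Among the 2 or 3 called members of each of these lists, 1, 1 and 1 of the chemokine genes, 0, 1 and 1 of the cytokine genes and 0, 0 and 1 of the granule genes were called without KO tumor 1, 2 and 3, with adjusted p up to 0.126, 0.0999 and 0.176.

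The costimulatory list repeated calls given above, and the NF-kB list gave 2 more. Of 26 tested genes of the TNF receptor family and costimulation 4 rose and 0 fell, with a median of 0.73. Those 4 were Icos, Ctla4, Tnfrsf18 and Tigit, which also stand in the lists above. Among 14 tested NF-kB genes 2 rose, beside 1.36% of all tested genes, with a median of 1.57. Both encode nuclear relatives of the NF-kB inhibitors. Nfkbid was at 274, 144 and 199 FPKM in KO tumor and 29.0, 68.0, 39.3 and 77.7 FPKM in spleen, a difference of 1.98 ± 0.40 (adjusted p = 0.0332). Nfkbiz differed by 1.82 ± 0.39 (adjusted p = 0.0420). The groups did not overlap in 9 of the 14 upward and 0 downward, beside 7.24% and 6.97% of all tested genes. Nfkbid was called without spleen 2 or 4 and Nfkbiz without spleen 4, and neither in the other fits that left out 1 library (adjusted p up to 0.195). In the T cell receptor complex and its proximal signalling genes 0 of 27 tested members passed, and the median was -0.23. Of these members 1 was under an unadjusted p of 0.05, beside 13.7% of all tested genes.

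Glycolysis genes leaned upward. Of 20 tested members 6 rose and 0 fell, beside 1.36% of all tested genes that rose, and the median difference was 1.67. The groups did not overlap in 15 upward and 0 downward, beside 7.24% and 6.97% of all tested genes. Aldoa, aldolase, was at 302, 453 and 422 FPKM in KO tumor and 125, 74.7, 125 and 96.0 FPKM in spleen, a difference of 1.90 ± 0.27 (adjusted p = 0.00735). Tpi1, triose phosphate isomerase, was at 682, 421 and 438 FPKM in KO tumor, against 98.3, 39.8, 10.4 and 10.3 FPKM in spleen, a difference of 4.22 ± 0.68 (adjusted p = 0.0127). Both separated the groups, though spleen 1 and 2 were far above spleen 3 and 4 for Tpi1. Pkm, the last enzyme of the path, was at 667, 649 and 500 FPKM in KO tumor and 248, 211, 274 and 341 FPKM in spleen, a difference of 1.18 ± 0.21 (adjusted p = 0.0218). Ldha (chr7:46841475-46855627), which turns pyruvate into lactate, was at 974, 814 and 586 FPKM in KO tumor and 390, 405, 247 and 392 FPKM in spleen, a difference of 1.14 ± 0.24 (adjusted p = 0.0372). Slc16a3, a lactate exporter, was at 10.8, 11.5 and 14.4 FPKM in KO tumor and 0.273, 0.238, 1.16 and 0 FPKM in spleen, a difference of 3.27 ± 0.63 (adjusted p = 0.0255). Pgk1 differed by 2.61 ± 0.48 (adjusted p = 0.0227), and its near-identical copy Pgk1-rs7 by 2.41 ± 0.38 (adjusted p = 0.0107), so that reads of the pair may be split between them and both values are uncertain. The same holds for Gapdh, which has many copies in the genome. It was at 21.6, 42.4 and 19.6 FPKM in KO tumor and 2.59, 4.08, 5.28 and 4.49 FPKM in spleen and missed the threshold (adjusted p = 0.0542). The glucose transporter Slc2a1 differed by 2.05 ± 0.62 and Hk2, a hexokinase, by 1.77 ± 0.64, and neither passed (adjusted p = 0.141 and 0.236). Without KO tumor 1, 2 or 3 in turn, 1, 0 and 1 of the 6 were called, and the highest adjusted p over the fits that left out 1 library was 0.183, that of Ldha, which lost its call in each of the 7.

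The 5-base core ACGTG of hypoxia response elements was in the promoter windows of 5 of the 6 glycolysis genes that rose (Aldoa, Ldha, Pgk1, Pkm and Slc16a3). On either strand, 19.6% of the 32851 promoters in the table hold it, a share of promoters and not of their 27025 genes. The core was also in 4 of 11 immediate early genes that rose, Dusp1 among them, and in 2 of 5 effector and tumor Treg genes that rose. The window of Ldha holds 5 matches and is shown because it holds the cAMP response element as well. It is chr7:46845554-46845853 on the plus strand (GRCm38.p6, RefSeq). Capitals mark ACGTG and its reverse complement CACGT, of which a pair of neighbours overlap in each CACGTG. Of 601 cAMP response elements in all promoters 12 shared a base with a match of the core.
Ldha promoter: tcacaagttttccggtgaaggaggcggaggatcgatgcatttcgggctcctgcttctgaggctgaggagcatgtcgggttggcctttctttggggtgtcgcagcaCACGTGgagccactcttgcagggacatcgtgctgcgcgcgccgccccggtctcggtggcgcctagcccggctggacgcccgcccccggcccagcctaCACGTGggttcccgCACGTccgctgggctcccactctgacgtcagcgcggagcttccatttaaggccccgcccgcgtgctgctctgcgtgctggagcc

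In the hypoxia response list 2 of 14 tested members rose, beside 1.36% of all tested genes, and 0 fell, with a median of 1.55. Hif1a, the oxygen-regulated factor itself, was at 165, 117 and 156 FPKM in KO tumor and 37.3, 69.7, 30.3 and 55.1 FPKM in spleen, a difference of 1.64 ± 0.36 (adjusted p = 0.0450). Ankrd37, a target of it, was at 9.38, 6.92 and 5.21 FPKM in KO tumor and listed at 0 in all 4 spleen libraries (adjusted p = 0.0214). Bhlhe40, a factor induced by hypoxia and by T cell receptor signals, missed the threshold at 3.26 ± 0.74 (adjusted p = 0.0505). Pdk1 and P4ha1, other targets, differed by -0.61 and -0.08 and did not pass. Hif1a was not called without any 1 KO tumor library, or without spleen 1, 3 or 4 (adjusted p up to 0.202). Ankrd37 met the filter through the KO tumor libraries alone, so that it had to be higher there. It was not tested without a KO tumor library and not called without spleen 1 or 2.

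Among genes of lipid uptake and storage 28 were listed, 17 were tested, 2 rose and 0 fell, with a median of 0.67. Of all tested genes 1.36% rose. Both that rose serve storage of triglyceride. Dgat1, the enzyme of the last step of triglyceride synthesis, was at 218, 184 and 222 FPKM in KO tumor, against 54.2, 25.5, 42.4 and 56.5 FPKM in spleen, a difference of 2.25 ± 0.34 (adjusted p = 0.00919). Hilpda, a lipid droplet protein that blocks triglyceride breakdown, was at 61.4, 46.3 and 51.9 FPKM in KO tumor, against 0.412, 2.95, 9.20 and 0.237 FPKM in spleen, a difference of 4.22 ± 0.77 (adjusted p = 0.0226). The groups lay clearly apart in both genes. Dgat2, a second enzyme of that step, was at 17.4, 4.82 and 26.9 FPKM in KO tumor and 2.01, 0.0359, 0.801 and 0 FPKM in spleen and missed the threshold (adjusted p = 0.0607). The droplet coat gene Plin2 overlapped, at 2.84, 12.5 and 29.1 FPKM in KO tumor and 4.09, 22.9, 22.6 and 7.43 FPKM in spleen. Fabp5, an intracellular fatty acid carrier, overlapped as well, at 65.2, 4.41 and 35.5 FPKM in KO tumor and 25.8, 1.56, 10.9 and 0.0882 FPKM in spleen. Neither Dgat1 nor Hilpda was called without any 1 KO tumor library (adjusted p up to 0.116).

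Lists of lipid use and mitochondria held few calls. In fatty acid oxidation 0 of 20 tested genes passed, with a median of -0.45, and Cpt1a, the gate of fatty acids into mitochondria, was at 20.1, 2.18 and 4.32 FPKM in KO tumor and 17.0, 34.1, 59.1 and 13.2 FPKM in spleen (adjusted p = 0.282). Of the PPAR list, with 13 of 23 genes tested, 0 passed and the median was -0.10. Pparg was listed at 0 in all 7 libraries, Ppara reached 0.118 FPKM in KO tumor 1 and was otherwise listed at 0, and Ppard was at 0.0185, 0.390 and 1.68 FPKM in KO tumor and 0, 0.0253, 0.180 and 0.0541 FPKM in spleen, so that it reached 1 FPKM in too few libraries for a test. Of 74 tested nuclear genes of the respiratory chain 1, the complex I gene Ndufa3, fell by 0.83 ± 0.16 on the log2 scale (adjusted p = 0.0287), and the median was 0.12. None of 9 tested respiratory chain genes of the mitochondrial genome passed, with a median of -0.35. In the TCA cycle 1 of 18 tested genes passed: Idh3g, a subunit of isocitrate dehydrogenase, was at 60.9, 88.9 and 75.3 FPKM in KO tumor and 185, 300, 171 and 180 FPKM in spleen, a difference of -1.44 ± 0.29 (adjusted p = 0.0321). Ndufa3 kept its call only without spleen 4 and Idh3g only without spleen 3, among the 7 fits that left out 1 library (adjusted p up to 0.148). Lists of mitochondrial biogenesis (15 tested), cholesterol synthesis (15) and fatty acid synthesis (8) had 0 calls by limma and medians of 0.06, 0.17 and -0.04. At an unadjusted p under 0.05 there were 3 genes in fatty acid oxidation, 1 in the PPAR list, 3 in the respiratory chain of the mitochondrial genome, 2 in mitochondrial biogenesis, 1 in cholesterol synthesis and 0 in fatty acid synthesis. Of all tested genes 13.7% were under that value.

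**Figure D3:**
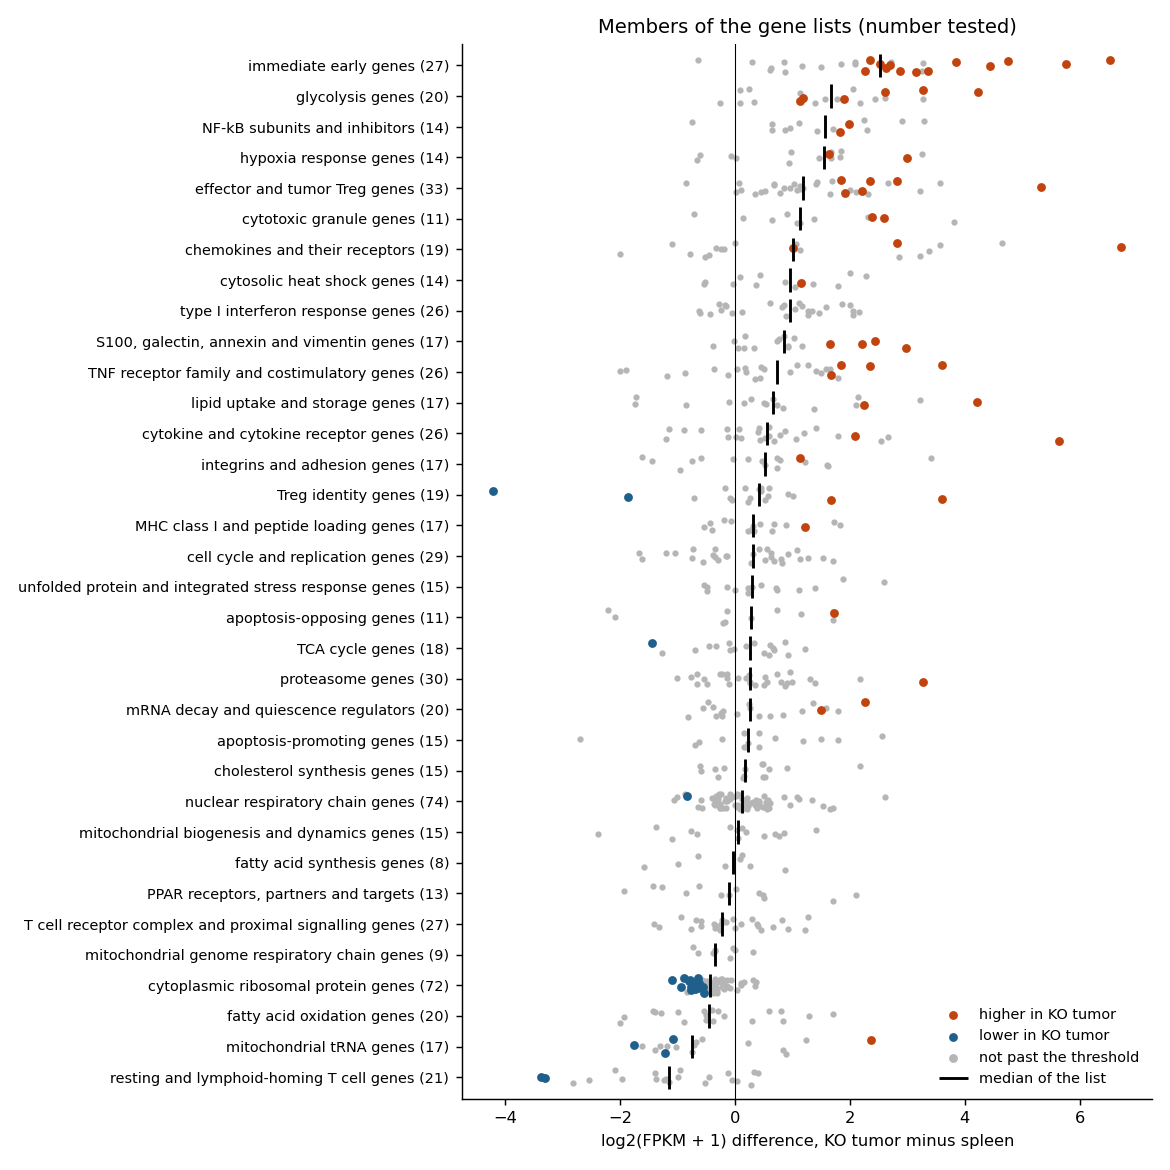
Difference in log2(FPKM + 1), KO tumor minus spleen, for the tested members of 34 gene lists, sorted by the median of the list (black bar); the number of tested members stands after each name. Coloured points passed an adjusted p of 0.05, 13 of them among the immediate early genes at the top and 17 among the cytoplasmic ribosomal protein genes near the bottom.

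Lists of motility, adhesion and antigen display held between 1 and 4 calls each, beside 1.36% of all tested genes that rose. Of 17 tested S100, galectin, annexin and vimentin genes 4 rose and 0 fell, with a median of 0.85. Vim (chr2:13573927-13582826), the intermediate filament of motile and activated lymphocytes, was at 720, 548 and 579 FPKM in KO tumor, against 80.9, 152, 125 and 104 FPKM in spleen, a difference of 2.43 ± 0.25 (adjusted p = 0.00225). Anxa2, an annexin of membrane traffic, was at 123, 103 and 103 FPKM in KO tumor and 10.9, 12.6, 13.3 and 15.9 FPKM in spleen, a difference of 2.97 ± 0.37 (adjusted p = 0.00571). Calls of Vim and Anxa2 held in all 7 fits that left out 1 library. Lgals1, the galectin that Tregs use against effector T cells, differed by 1.64 ± 0.25 (adjusted p = 0.0105), and S100a11 by 2.21 ± 0.47 (adjusted p = 0.0422), and Lgals1 was not called without KO tumor 1 or 2, nor S100a11 in any of the 7 fits but that without spleen 3 (adjusted p up to 0.195). B2m, the light chain of MHC class I, was at 2741, 2038 and 2419 FPKM in KO tumor and 1080, 1004, 1237 and 829 FPKM in spleen, a difference of 1.21 ± 0.16 (adjusted p = 0.00605). It was the single call among 17 tested MHC class I and peptide loading genes and held in all 7 fits. The adhesion gene Cd2 (1 of 17 tested in its list), the heat shock gene Hsp90aa1 (1 of 14), the survival kinase gene Pim1 (1 of 11) and the proteasome gene Psma5 (1 of 30) rose alone in their lists. Hsp90aa1 was at 891, 827 and 723 FPKM in KO tumor and 380, 332, 348 and 399 FPKM in spleen, a difference of 1.15 ± 0.16 (adjusted p = 0.00726), and was not called without KO tumor 1 or 2 (adjusted p up to 0.0541). Cd2 and Pim1 were called in 1 fit each of the 7 that left out 1 library, and Psma5, not tested without a KO tumor library, in 0 of 4. Psma5 met the filter through the KO tumor libraries alone, so that it had to be higher there. In the list of mRNA decay and quiescence genes 2 of 20 rose, Zfp36 and its relative Zfp36l1, and 0, 0 and 1 of these were called without KO tumor 1, 2 and 3 (adjusted p up to 0.199).

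Several lists had 0 calls by limma: type I interferon response (26 tested, median 0.96), cell cycle and replication (29 tested, median 0.31), unfolded protein and integrated stress response (15 tested, median 0.29) and apoptosis-promoting genes (15 tested, median 0.22). At an unadjusted p under 0.05 they held 6, 3, 2 and 3 genes, while 1192 of all 8725 genes (13.7%) were under that value. Ifit3, an interferon-induced gene, shows the spread behind this, at 66.2, 26.4 and 30.5 FPKM in KO tumor and 15.2, 0.839, 5.02 and 31.2 FPKM in spleen. It was picked after its values were seen.

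Beyond the lists, further protein-coding genes with large differences are given here, while receptor and immunoglobulin segments and predicted genes, some with differences as large, were outside the naming rule. Odc1, the first enzyme of polyamine synthesis, was picked after its values were seen for its low p. It was at 222, 324 and 255 FPKM in KO tumor and 24.6, 12.5, 27.3 and 19.1 FPKM in spleen, a difference of 3.65 ± 0.36 (adjusted p = 0.00164), and its call held in all 7 fits that left out 1 library. The leukotriene B4 receptor gene Ltb4r1 was at 32.6, 49.4 and 15 FPKM in KO tumor and 0, 0.0583, 0.0520 and 0 FPKM in spleen (adjusted p = 0.00605). AA467197 was at 30.9, 15.3 and 35.4 FPKM in KO tumor and listed at 0 in all spleen libraries (adjusted p = 0.00605). Both met the filter through the KO tumor libraries alone, so that they had to differ and could not be tested without any 1 of these. Mt1, a metal-binding metallothionein, was at 115, 64.3 and 57.9 FPKM in KO tumor and 0.0608, 0.196, 23.2 and 2.52 FPKM in spleen (adjusted p = 0.0432), and Rgcc, a cell cycle regulator, at 109, 53.2 and 83.2 FPKM in KO tumor and 0.413, 0.708, 3.08 and 14 FPKM in spleen (adjusted p = 0.0202). Mt1 and Rgcc varied widely in spleen and were not called without any 1 KO tumor library, Mt1 also not without spleen 1, 2 or 4. Among those that fell, Eps8l1, an actin regulator, was at 0.0284, 0.264 and 0.0139 FPKM in KO tumor and 12.2, 23.6, 17.2 and 20.3 FPKM in spleen, a difference of -4.10 ± 0.60 (adjusted p = 0.00756). Sh3gl3, an endophilin gene, was at 0.0291, 0 and 0 FPKM in KO tumor and 21.7, 22.3, 17.7 and 3.62 FPKM in spleen (adjusted p = 0.0269). Pdzk1ip1 was listed at 0 in all KO tumor libraries and at 20.3, 8.24, 9.90 and 6.99 FPKM in spleen (adjusted p = 0.0226), and Tspyl3 was below 1.1 FPKM in KO tumor and at 10.9 to 18.5 FPKM in spleen (adjusted p = 0.0234). Eps8l1, Sh3gl3 and Pdzk1ip1 met the filter through the spleen libraries alone, so that they had to be lower in KO tumor. Of these 4 genes, the call of Eps8l1 held in all 7 fits. The others were lost without any 1 KO tumor library, Sh3gl3 also without spleen 1, 2 or 3 and Tspyl3 also without spleen 3 or 4.

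Cytoplasmic ribosomal protein genes formed the main group that fell. All 72 in the files were tested, 17 fell and 0 rose (23.6% called, against 0.756% of all tested genes that fell), 65 differences were negative, and the median was -0.44. The differences were small and the libraries even. Rplp1, a stalk protein of the large subunit, was at 5927, 5577 and 5531 FPKM in KO tumor, against 9111, 9627, 10020 and 10087 FPKM in spleen, a difference of -0.77 ± 0.07 (adjusted p = 0.00160). Rps21, of the small subunit, was at 3754, 3477 and 3339 FPKM in KO tumor and 6854, 7786, 6807 and 8803 FPKM in spleen, a difference of -1.10 ± 0.10 (adjusted p = 0.00160). Together the 72 genes took 14.7, 15.1 and 16.3% of the summed FPKM of KO tumor 1 to 3 and 21.4, 22.5, 21.2 and 21.7% of that of spleen 1 to 4, and the groups did not overlap. FPKM are shares of a library, so that a fall of one group and a gain of the rest cannot be told apart. The median of the list was -0.41 with libraries scaled to their protein-coding total and -0.35 after quantile normalization, where 11 members were called. Ribosomal protein genes have many processed copies, which can share their reads, so that the values of single members are uncertain, and 8 processed pseudogenes fell and 1 rose among the called genes. Without KO tumor 1, 2 or 3 in turn, 6, 5 and 7 of the 17 were called, and 5, Rplp1 and Rps21 among them, were called in all 7 fits that left out 1 library. Among the other members that fell the adjusted p reached 0.176.

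Calls among short non-coding RNA genes were mostly downward. Of 46 tested small nuclear RNA genes, which serve splicing, 9 fell and 0 rose, with a median of -1.20. Of all tested genes 0.756% fell. Rnu12, the U12 RNA of the minor spliceosome, was at 14.6, 20.02 and 11.2 FPKM in KO tumor and 112, 151, 71.5 and 103 FPKM in spleen, a difference of -2.75 ± 0.39 (adjusted p = 0.00735). It was picked after its values were seen as the one with a named RNA. Small nuclear RNA took 0.114, 0.131 and 0.161% of the summed FPKM in KO tumor and 0.452, 0.467, 0.365 and 0.460% in spleen. Of 81 tested small nucleolar RNA genes 5 fell and 2 rose, and of 17 tested mitochondrial tRNA genes mt-Tp, mt-Tq and mt-Te fell and mt-Tf rose, with a median of -0.75. Mitochondrial tRNA took 0.215, 0.220 and 0.252% of the summed FPKM in KO tumor and 0.467, 0.378, 0.466 and 0.535% in spleen. FPKM divides by length, so a few fragments weigh heavily in genes this short, and reads of near-identical copies of small nuclear RNA genes are uncertain. Whether these values follow the amounts of such short RNAs in the cells was not tested. Without KO tumor 1, 2 or 3 in turn, 5 small nuclear RNA genes were called in each fit, and 1, 0 and 0 of the 4 mitochondrial tRNA genes.

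**Figure D4:**
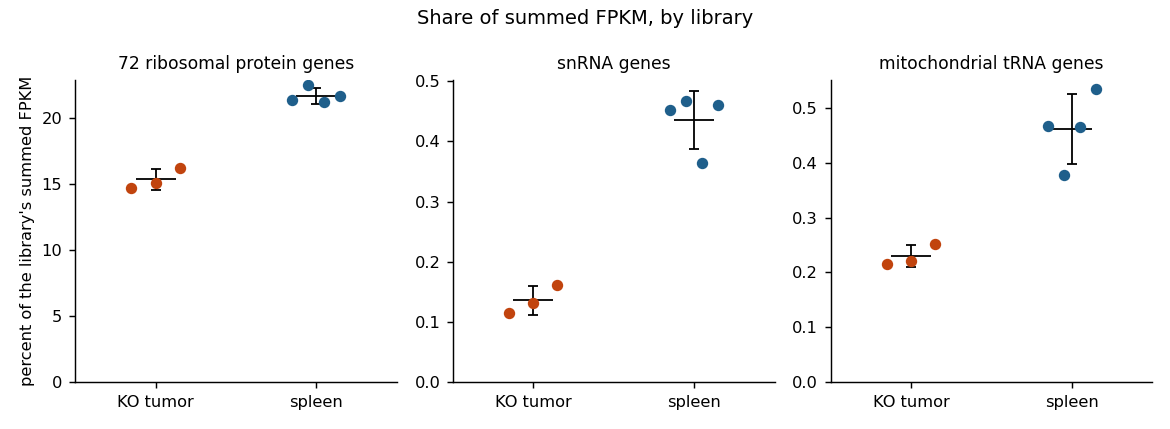
Share of a library's summed FPKM, in percent, taken by 72 ribosomal protein genes, by small nuclear RNA (snRNA) genes and by mitochondrial tRNA genes, with KO tumor left and spleen right; points are libraries, the bar is the mean and the error bar 1 SD. The KO tumor libraries lie below all spleen libraries in each panel, at 14.7 to 16.3% against 21.2 to 22.5% in the first.

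Markers of other immune cells differed between the groups in both directions. B cell markers summed to 17.9, 19.8 and 53.2 FPKM in KO tumor, against 181, 258, 154 and 84.0 FPKM in spleen, with all 10 above 0 in some library of each group and 2 of 10 at or above 1 FPKM in all KO tumor libraries, against 6 of 10 in all spleen libraries. Of 8 tested, 1 fell, beside 0.756% of all tested genes, and 0 rose, and the median difference was -1.71. MHC class II genes summed to 326, 114 and 364 FPKM in KO tumor and 685, 591, 672 and 694 FPKM in spleen. Of 8 tested, 2 fell, namely H2-Aa with a difference of -2.17 ± 0.48 (adjusted p = 0.0476) and H2-DMb2 with one of -3.27 ± 0.65 (adjusted p = 0.0307). Further called genes known from B cells or myeloid cells, of no list and picked after the results were seen except where the rule names them, went both ways. Fcmr, the receptor for IgM, was at 0.0745, 0 and 0.764 FPKM in KO tumor and 40.3, 33.1, 16 and 16.3 FPKM in spleen, a difference of -4.36 ± 0.64 (adjusted p = 0.00756). Lst1, a myeloid and lymphocyte gene of the MHC region, differed by -3.08 ± 0.38 (adjusted p = 0.00494) and Pou2f2, the B cell factor Oct2, by -2.28 ± 0.43 (adjusted p = 0.0242). Ighm, the IgM heavy chain, was at 305, 265 and 236 FPKM in KO tumor and 600, 1072, 1227 and 922 FPKM in spleen, a difference of -1.79 ± 0.24 (adjusted p = 0.00605), and was picked after its values were seen. The other call among 9 tested immunoglobulin segments went up: Ighj4, a joining segment of the heavy chain, was at 185, 437 and 30.2 FPKM in KO tumor and 15.4, 0, 0 and 0 FPKM in spleen, a difference of 6.08 ± 1.15 (adjusted p = 0.0242). Reads of so short a segment are uncertain. Lilrb4a, an inhibitory receptor of myeloid cells, was at 88.3, 65.4 and 52.7 FPKM in KO tumor and 9.61, 5.03, 9.02 and 1.79 FPKM in spleen, a difference of 3.39 ± 0.58 (adjusted p = 0.0169). Lilrb4a was not called without any 1 KO tumor library (adjusted p up to 0.0999), nor Ighj4 without KO tumor 1 or 2 or spleen 2, 3 or 4 (adjusted p up to 0.131). Calls of Fcmr, Lst1 and Ighm held in all 7 fits that left out 1 library, while H2-DMb2, Pou2f2 and H2-Aa were called in 1, 2 and 1 of them. Fcmr met the filter through the spleen libraries alone, so that it had to be lower in KO tumor. The part of B cells in the genes that fell was not tested.

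Plasma cell markers went the other way and rested on one gene. Their sum was 1130, 134 and 224 FPKM in KO tumor and 0.356, 21.5, 152 and 0.5 FPKM in spleen, so that spleen 3 lay above KO tumor 2. Jchain (chr5:88519809-88527891), which joins IgM and IgA into polymers, was at 1113, 126 and 180 FPKM in KO tumor and 0.272, 0, 62.3 and 0.5 FPKM in spleen, a difference of 6.47 ± 1.35 (adjusted p = 0.0368). KO tumor 1 was far above the rest. The call was lost without any 1 KO tumor library or without spleen 1, 2 or 4 (adjusted p up to 0.178). Mzb1, another plasma cell gene, overlapped between the groups (adjusted p = 0.755). Sdc1 and Tnfrsf17, defining markers, were at 0 in all spleen libraries and at most 0.117 and 4.36 FPKM in KO tumor.

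Myeloid and stromal markers gave 0 calls by limma, with 3 of 4 tested dendritic cell markers lower in KO tumor. The 15 macrophage or monocyte markers summed to 306 to 422 FPKM in KO tumor and 302 to 729 FPKM in spleen, with 0 of 11 tested past the threshold and a median of -0.93. Tyrobp and Fcer1g had the highest means of these 15. Tyrobp was at 91.8, 177 and 118 FPKM in KO tumor and 216, 201, 150 and 131 FPKM in spleen. Fcer1g was at 81.2, 150 and 59.4 FPKM in KO tumor and 228, 96.4, 81.4 and 45.8 FPKM in spleen. Both overlapped between the groups (adjusted p = 0.571 and 0.969). Csf1r, the receptor that defines these cells, overlapped as well, at 5.23, 5.01 and 1.78 FPKM in KO tumor and 30.9, 0.915, 0.504 and 3.17 FPKM in spleen. The 9 dendritic cell markers summed to 2.06 to 8.12 FPKM in KO tumor and 7.10 to 34.2 FPKM in spleen, with Batf3 and Ccl17 at 0 in all KO tumor libraries and Ccl17 at 0 in all spleen libraries too. Of 4 tested, 3 (Itgax, Siglech and Batf3) had no overlap and were lower in KO tumor, beside 6.97% of all tested genes, and the median was -2.21. Itgax and Batf3 met the filter through the spleen libraries alone, so that both had to be lower in KO tumor. Itgax, the integrin CD11c, was at 0.866, 0.459 and 0 FPKM in KO tumor and 12.9, 5.97, 4.33 and 2.13 FPKM in spleen, a difference of -2.18 ± 0.71 (adjusted p = 0.172). Batf3, a factor of cross-presenting dendritic cells, was at 1.04, 20.4, 1.72 and 5 FPKM in spleen (adjusted p = 0.207). The 8 neutrophil markers summed to 2.62 to 9.21 FPKM in KO tumor and 0.221 to 3.05 FPKM in spleen, with S100a8, Csf3r, Cxcr2, Retnlg and Camp at 0 in all KO tumor libraries. The 8 fibroblast or endothelial markers summed to 4 to 8.84 FPKM in KO tumor and 1.48 to 17.8 FPKM in spleen. At an unadjusted p under 0.05 there were 0 of 11 tested macrophage or monocyte, 3 of 4 dendritic cell, 1 of 1 neutrophil and 0 of 1 fibroblast or endothelial markers, beside 13.7% of all tested genes. The part of these cells in the results above was not tested.

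**Figure D5:**
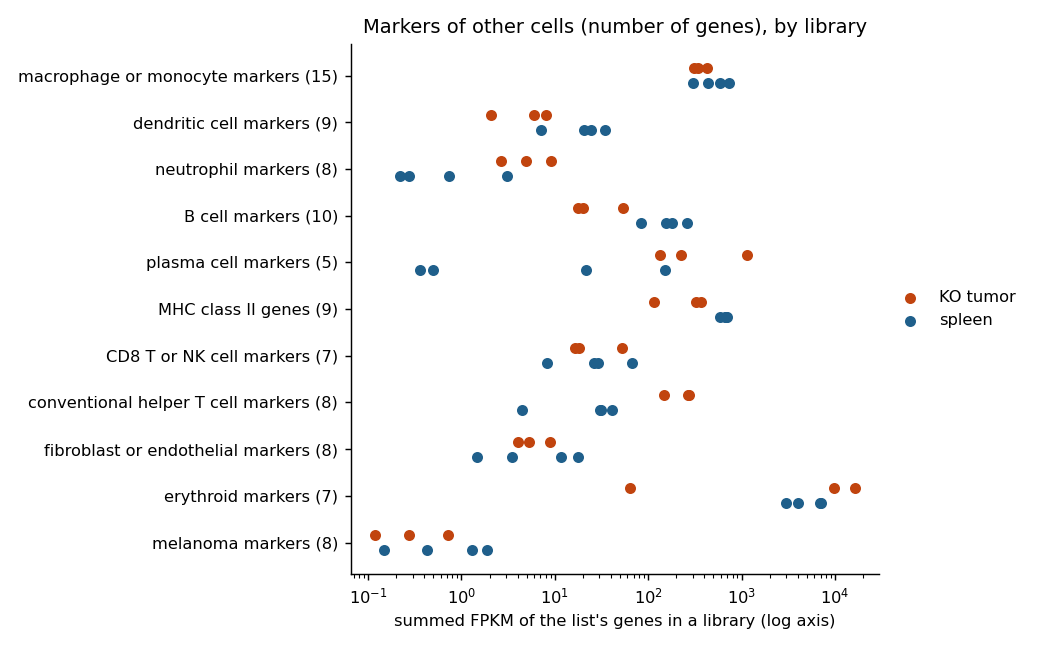
Summed FPKM of the markers of other cells in each library, on a log axis, with KO tumor above spleen for each list; the number of genes stands after the name and each point is a library. KO tumor libraries lie below all spleen libraries for B cell markers (17.9 to 53.2 against 84.0 to 258 FPKM) and MHC class II genes, and above them for conventional helper T cell markers, where Ifng makes up 70.9 to 87.1% of each KO tumor sum.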

How the data were processed

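RNA of sorted Tregs was sequenced, and 7 libraries (3 KO tumor, 4 spleen) were grouped by their titles. The authors deposited one FPKM value per gene and library, and tools and builds listed, without roles, in the submitters' processing notes are Cufflinks 2.2.1, Cuffdiff, Bowtie2 2.2.9, TopHat2 2.1.1, DESeq2 and Trimmomatic, with mm10 and GRCm38. No counts were used. Depth was estimated from the steps between low FPKM values, of which 93.2 to 96.3% were whole reads within 0.1 read, so that values near 0 rest on few fragments. Of 22255 gene IDs 22196 matched GENCODE M21 (GRCm38), the source of gene coordinates and classes.

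FPKM were put on the log2(FPKM + 1) scale, which understates changes of low genes, and genes with at least 1 FPKM in at least 3 of the 7 libraries were tested with limma 3.58.1 (trend, robust) in R 4.3.3, KO tumor minus spleen, with Benjamini-Hochberg adjusted p and a threshold of 0.05. Every adjusted p in the text is from limma. Cd36 was tested with an exact permutation test. Python 3.11.15, numpy 2.4.6, pandas 2.3.3, scipy 1.17.1 and matplotlib 3.10.9 were used, and the fit was checked on simulated data. Alternatives were pseudocounts of 0.1 and 5, no filter, a filter at 5 FPKM, scaling to the protein-coding total, quantile normalization, array weights, a fit without robust, all 14 libraries, a replicate block and each library left out.

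The members and lists were chosen with earlier results of these data known. Genes were named by a rule: Cd36 and Foxp3, up to 12 protein-coding genes in each direction with the largest differences, no overlap and a mean of at least 10 FPKM in the higher group, in each list the 3 genes of smallest p, and the 2 members of each marker list with the highest mean. Other genes, further list members included, were chosen after their values were seen. Some genes that the lists hold are not reported here.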

Additional observations from a re-analysis of the deposited data

Results flagged for a closer look

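Among 136 genes checked in spleen, 17 had 1 library set apart from the other three, where the gap to its nearest neighbour, as a ratio of the group's range, passed Dixon's critical value. For normally distributed values chance sets about 1 in 20 such groups apart. The ratios here are of FPKM, often with values at or near 0, so that this rate need not hold. KO tumor, with 3 libraries, was not checked. Of these genes 7 were called. Spleen 4 was set apart upward in Ccl3 (6.94 FPKM, ratio 1) and downward in Treml2 (8.07 FPKM, ratio 0.990). Spleen 3 was set apart upward in Jchain (62.3 FPKM, ratio 0.992), Mt1 (23.2 FPKM, ratio 0.894) and Fosb (0.862 FPKM, ratio 0.925). Spleen 2 was set apart upward in Idh3g (299.9 FPKM, ratio 0.894) and in Psma5 (0.262 FPKM, ratio 1), which was listed at 0 in the other spleen libraries.

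The remaining 10 genes were not called, and the library set apart was the highest of spleen in each. It was spleen 1 for the sterol enzyme gene Msmo1 (7.49 FPKM, ratio 0.976), the tubulin regulator Stmn1 (116 FPKM, ratio 0.895), the stress factor Atf4 (44.5 FPKM, ratio 0.923) and the endothelial marker Kdr (6.09 FPKM, ratio 0.935). It was spleen 2 for the desaturase gene Scd1 (15.8 FPKM, ratio 0.848), the fatty acid synthase gene Fasn (24.4 FPKM, ratio 0.854) and the NK cell marker Klrd1 (0.0842 FPKM, ratio 1). It was spleen 3 for the carnitine carrier Slc25a20 (15.04 FPKM, ratio 0.845) and the sterol regulator Insig1 (15.9 FPKM, ratio 0.837), and spleen 4 for the sterol enzyme gene Mvd (37.9 FPKM, ratio 0.927).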

How the results depend on the processing

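Of the 185 called genes, 148 were also called with a pseudocount of 0.1, 170 with 5, 183 with scaling to the protein-coding total, 174 with quantile normalization, 184 with array weights and 184 without robust, and every called gene that was tested kept its direction in each alternative run. With no filter, 15117 genes were tested and 46 were called (25 higher, 21 lower in KO tumor). The fit of all 14 libraries called 343 genes (195 higher, 148 lower). With 1 library left out, the count ranged from 34 to 149 in all, from 14 to 90 for higher and from 20 to 59 for lower. Fits with 1 library left out had fewer samples, and the fit with no filter had more tests. The cause of these shifts was not tested. Replicate numbers were not used to pair the samples in the main fit. The same-number correlations of deviations from the group means were 0.028, -0.013 and 0.0098, which cannot settle whether such samples were paired. A fit with the replicate block called 92 genes (58 higher, 34 lower), 81 of them among the 185. The Cd36 difference was -2.02 with a pseudocount of 0.1 and between -1.25 and -0.43 with 1 library left out. FPKM keep no counts, so precision at low levels could not be modelled.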
